A study of Mus musculus with 30 samples.

Results

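The genes described here are 9 members of the fatty acid oxidation pathway and of the target genes of PPAR alpha: Cpt1a, Hadha, Hadhb, Ehhadh, Cyp4a10, Cyp4a14, Acot1, Acot2 and Cd36. They were chosen by symbol, and all probe sets that list one of these symbols were taken, which gave 17 of the 45101 probe sets of an Affymetrix mouse genome array. A probe set is a group of short probes meant for 1 transcript. Of the 17, 15 list 1 symbol, 1422997_s_at lists both Acot1 and Acot2, and 1424853_s_at lists both Cyp4a10 and Cyp4a31. Cyp4a10 has no probe set of its own, so the shared one stands for it here and is called Cyp4a10/Cyp4a31 throughout.

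Total RNA came from liver, kidney and brain of 10 male mice taken at day 22, with 1 array per tissue and mouse. Every mouse carried the viable yellow agouti allele Avy opposite the nonagouti allele a, so no group without Avy was compared. Per the labels the colony derived from C3H/HeJ mice and was kept by sibling mating with forced heterozygosity for Avy. The coat classes numbered 5, running from yellow over slightly mottled, mottled and heavily mottled to pseudoagouti, which resembles wild-type agouti, with 2 mice each. Mice of a class are numbered 1 and 2, and arrays that share class and number were treated as coming from 1 mouse. No treatment or diet group was labelled.

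Long-chain fatty acids enter cells partly through the scavenger receptor Cd36 and enter mitochondria as carnitine esters made by Cpt1a, the regulated step of the pathway in liver. Hadha and Hadhb are the alpha and beta subunits of the mitochondrial trifunctional protein, which carries out the later steps of each cycle on long chains. Ehhadh is the bifunctional enzyme of peroxisomal beta oxidation, Cyp4a10 and Cyp4a14 hydroxylate the far end of fatty acids in the endoplasmic reticulum, and Acot1 (cytosolic) and Acot2 (mitochondrial) release free fatty acids from coenzyme A. PPAR alpha is a nuclear receptor activated by fatty acids, most active in liver and kidney cells that burn fat, and these genes are textbook targets of it.

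Hadha and Hadhb lie head to head on mouse chromosome 5, so 1 stretch separates the starts of both subunits, and it is shown because their levels are compared below. In RefSeq (build GRCm38.p6) it covers chr5:30154981-30155252, written on the plus strand. The capitals mark the GC box GGGCGG.
Hadha to Hadhb: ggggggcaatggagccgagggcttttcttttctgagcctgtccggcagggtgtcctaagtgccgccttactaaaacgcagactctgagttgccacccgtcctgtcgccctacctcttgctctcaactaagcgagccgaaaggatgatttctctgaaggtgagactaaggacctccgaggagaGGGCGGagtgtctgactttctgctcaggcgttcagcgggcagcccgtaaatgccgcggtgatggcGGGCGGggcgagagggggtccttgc
Acot2 and Acot1 are neighbours on chromosome 12, and the 250 bases before the start of each are shown because both enzymes have the same tissue order below. They lie at chr12:83987611-83987860 and chr12:84009252-84009501 on the plus strand, and the capitals mark the CCAAT box in either orientation.
Acot2: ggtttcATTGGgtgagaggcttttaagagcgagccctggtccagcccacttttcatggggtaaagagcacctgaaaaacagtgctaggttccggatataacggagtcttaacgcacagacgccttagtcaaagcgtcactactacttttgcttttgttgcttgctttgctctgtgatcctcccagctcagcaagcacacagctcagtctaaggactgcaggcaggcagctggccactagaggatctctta
Acot1: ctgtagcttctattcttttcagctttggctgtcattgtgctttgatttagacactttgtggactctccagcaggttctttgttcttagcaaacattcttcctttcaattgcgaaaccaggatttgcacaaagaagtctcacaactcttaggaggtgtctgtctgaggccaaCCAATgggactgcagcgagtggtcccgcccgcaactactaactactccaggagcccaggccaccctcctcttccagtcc
In a global alignment, 128 of 283 columns (45.2%) of the stretches before Acot1 and Acot2 were identical. The last stretch, chr16:21787835-21788084 on the minus strand, precedes Ehhadh, the entry with the lowest p for a difference between mice, and the CCAAT box is again in capitals.
Ehhadh: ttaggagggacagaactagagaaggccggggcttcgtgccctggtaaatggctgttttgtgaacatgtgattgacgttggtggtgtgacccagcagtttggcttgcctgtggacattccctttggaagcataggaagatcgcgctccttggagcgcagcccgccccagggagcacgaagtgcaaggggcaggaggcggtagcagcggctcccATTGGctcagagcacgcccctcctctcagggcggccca
RefSeq promoter entries were matched for 7 of the 9 genes. The direct repeat bound by PPAR and its partner RXR, spelled AGGTCANAGGTCA on either strand, was found in 0 of these 7 stretches of 250 bases and in 0.0335% of 32851 mouse promoters of the same length. The single hexamer AGGTCA was found in those of Cpt1a and Cd36 and in 14.0% of all promoters. The CCAAT box stood in 5 of 7 against 33.8% of all, and GGGCGG in 6 of 7 against 32.7%. Hadha and Hadhb both count among the 6, although their windows are largely the same bases, so they are not separate counts. These matches describe the letters of the windows and were not tied to any measurement.

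Values are MAS5 signals, a linear intensity scaled to the same trimmed mean on every array, and signals of different probe sets cannot be compared as amounts. Differences are on the log2(signal + 16) scale. Testing required that the highest tissue mean reach 251.8, the median of that quantity, and 22519 probe sets did, 14 of the 17 here among them. Acot2 1422996_at, Hadhb 1442732_at and Cd36 1450884_at fell below it. Each gene is represented by its own probe set with the highest mean, which gives 8 genes and the shared probe set, 9 entries in all. Median signals per array ran from 105.2 to 205.4, array number limits precision, and the labels give no batch. The highest signal per array averaged 36525 in number 1 and 23162 in number 2 in kidney, and 32284 and 20424 in brain. In liver it averaged 43011.5 and 42703.1. Kidney and brain of mottled mouse 1 and brain of heavily mottled mouse 1 lay within the range of number 2. The part of this in results by number or mouse was not tested beyond quantile normalisation. Markers followed the tissue labels to different degrees. Alb averaged 27508 in liver, 2338 in kidney and 173.2 in brain, and Slc34a1 of the proximal tubule 106.7, 18933 and 102.3. Snap25 of neurons averaged 7.37, 10.25 and 18425. Ttr, also listed for hepatocytes, was less separate at 29283, 10461 and 14849. Tissues are mixtures of cells, so fewer cells of a type and less RNA per cell cannot be told apart.

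Most members had lower signals in brain than in liver or kidney. Liver was above brain for 8 of 9 entries and kidney for 9 of 9, where a call needed a Benjamini-Hochberg adjusted p under 0.05 in limma and a log2 difference of at least 1. Of all probe sets tested, 20.5% were called higher in liver than brain and 20.8% higher in kidney than brain. The median difference of the entries was 3.57 for liver over brain and 2.92 for kidney over brain, against -0.15 and 0.03 over all probe sets. For Ehhadh, both Cyp4a entries and Cd36 the brain signals lay near the lower end of the scale, so the size of a difference from brain depends on the offset, and it is given with offsets of 1 and 64 as well.

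**Figure D1:**
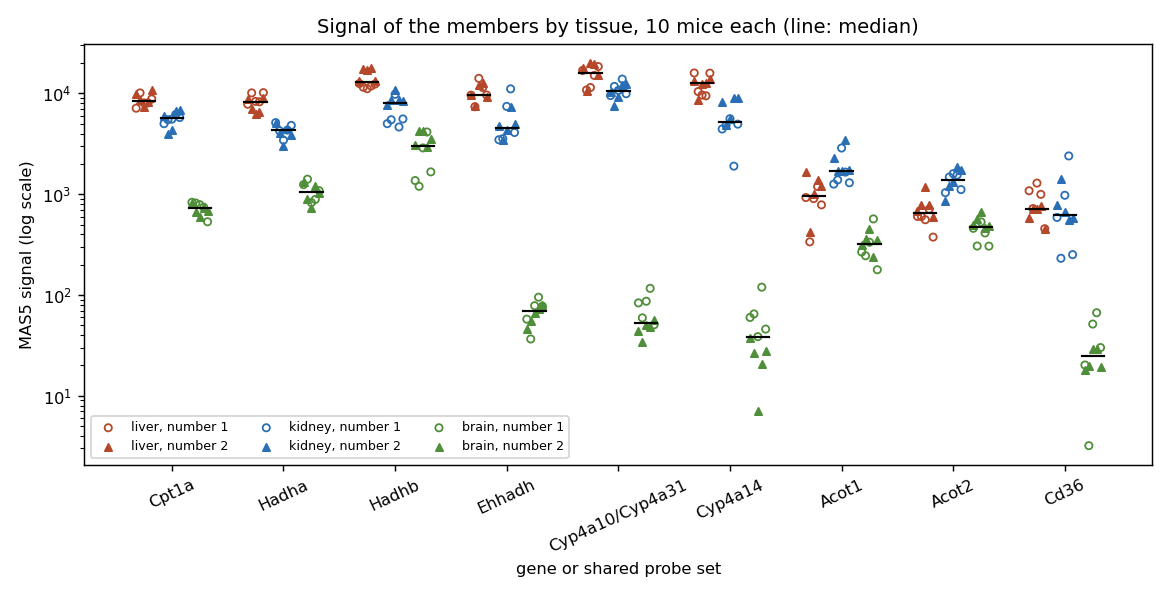
MAS5 signal (log axis) of the 9 entries in liver, kidney and brain; each point is 1 mouse, open circles are number 1, filled triangles number 2, and lines are medians of 10. The brain points of Ehhadh, Cyp4a10/Cyp4a31, Cyp4a14 and Cd36 lie at or below a signal of 119.6, while Acot1 and Acot2 are highest in kidney.

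For Cd36, the uptake receptor, the signal of 1450883_a_at ran from 453.9 through a median of 717.0 to 1289.5 in liver. In kidney it ran from 231.3 through 627.8 to 2398.2, and in brain from 3.2 through 24.7 to 66.7. Liver and kidney overlapped widely and both lay entirely above brain. Liver exceeded brain by 4.17 ± 0.22 (SE, n = 10 mice; limma adjusted p = 2.0e-15) and kidney by 4.05 ± 0.22. With offsets of 1 and 64 the first difference was 4.92 and 3.14, and the second 4.79 and 3.04. Liver and kidney differed by 0.12 ± 0.22 (limma adjusted p = 0.635), which turned to -0.04 without slightly mottled mouse 1. Cd36 1423166_at gave 0.15 ± 0.27 for liver against kidney, with 6 of 10 mice higher in liver.

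Cpt1a 1460409_at read 7136, 8421 and 10745 (lowest, median and highest) in liver. The same 3 values were 3954, 5666 and 6864 in kidney and 533.1, 735.0 and 831.9 in brain. All 10 livers were above every kidney, and all kidneys above every brain. Liver exceeded brain by 3.57 ± 0.09 (limma adjusted p = 3.8e-22). Liver exceeded kidney in 10 of 10 mice by 0.64 ± 0.09 (adjusted p = 4.2e-07), which did not reach the required log2 difference of 1. The other probe sets of Cpt1a, 1434866_x_at and 1438156_x_at, gave 3.74 and 3.72 for liver over brain, so all 3 agree on tissue.

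Both subunits of the trifunctional protein were ordered liver, kidney, brain. Hadha 1452173_at read 6254, 8299 and 10182 in liver (lowest, median and highest), 2994, 4296 and 5134 in kidney, and 723.0, 1053 and 1410 in brain, with no overlap between tissues. Hadhb 1437172_x_at read 11150, 12855 and 18079 in liver, 4644, 8040 and 10883 in kidney, and 1198, 2995 and 4271 in brain. Liver exceeded brain by 2.95 ± 0.08 for Hadha (limma adjusted p = 5.1e-21) and 2.35 ± 0.15 for Hadhb (adjusted p = 9.7e-14). Liver over kidney came to 0.96 ± 0.08 and 0.92 ± 0.15, higher in 10 of 10 mice for both and just under the required log2 difference. The second Hadhb probe set, 1426522_at, gave 2.19 for liver over brain but 0.45 ± 0.07 for liver over kidney.

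Ehhadh 1448382_at was high in liver and kidney and low in brain. Its lowest, median and highest signals were 7387, 9633 and 14123 in liver, 3427, 4553 and 11101 in kidney, and 36.6, 70.0 and 95.1 in brain. Liver exceeded brain by 6.97 ± 0.11 (limma adjusted p = 1.8e-25), and by 7.27 and 6.30 with offsets of 1 and 64. Liver exceeded kidney in 10 of 10 mice by 0.9998 ± 0.11 (adjusted p = 1.5e-08), which is below the required difference of 1 by its last digits and passed with an offset of 1 (1.002).

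The omega hydroxylases had high signals in liver and kidney and signals near the lower end of the scale in brain. Cyp4a10/Cyp4a31 1424853_s_at read 10602, 15996 and 19998 in liver, 7538, 10516 and 13880 in kidney, and 34.0, 53.4 and 116.4 in brain. Cyp4a14 1423257_at read 8596, 12567 and 15962 in liver, 1900, 5260 and 9084 in kidney, and 7.0, 38.0 and 119.6 in brain. Liver exceeded brain by 7.65 ± 0.13 for the shared probe set and 7.78 ± 0.26 for Cyp4a14 (limma adjusted p = 5.4e-25 and 1.4e-19). With offsets of 1 and 64 these were 7.98 and 6.93 for the shared probe set and 8.34 and 6.84 for Cyp4a14. Cyp4a14 was the 1 entry called higher in liver than in kidney, by 1.15 ± 0.26 (adjusted p = 3.3e-04, 10 of 10 mice), and 1 of 9 is near the 9.87% of all probe sets so called. The shared probe set gave 0.52 ± 0.13 in the same comparison. Cyp4a31 has a probe set of its own, with means of 2758 ± 754 in liver, 5253 ± 1799 in kidney and 109.6 ± 60.5 in brain (SD, n = 10), so it leans to kidney where the shared probe set leans to liver.

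Acot1 and Acot2, the thioesterases, were the 2 entries called lower in liver than in kidney, and 2 of 9 is near the 18.6% of all probe sets so called. Of 6 other tested thioesterases, Acot3 was also called lower (-1.02 ± 0.23), Acot12 was called higher (1.72 ± 0.13) and the other 4 were not called. Acot3 was named after its values were seen. Acot1 1449065_at read 336.9, 963.5 and 1652 in liver, 1260, 1697 and 3452 in kidney, and 178.1, 322.4 and 569.0 in brain. Acot2 1439478_at read 375.5, 643.9 and 1184 in liver, 860.6, 1398 and 1854 in kidney, and 305.4, 474.2 and 668.9 in brain. Liver lay below kidney in 10 of 10 mice for both, by -1.03 ± 0.19 for Acot1 and -1.004 ± 0.13 for Acot2 (limma adjusted p = 4.6e-05 and 2.6e-07), although the tissues' signals overlapped. The shared probe set 1422997_s_at gave -1.04. Without slightly mottled mouse 1 the differences were -0.92 and -0.97, and with an offset of 64 they were -0.98 and -0.95, all below the required size. Acot2 was the 1 entry not called between liver and brain (0.52 ± 0.13).

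Other genes of the pathway were taken from a list of 91, of which 76 had a tested probe set. Liver was above brain for 57 and below for 12 (30.3% of all probe sets were lower), kidney above brain for 54 and below for 7 (22% lower), and liver above kidney for 28 and below for 9. The median differences were 3.15, 1.78 and 0.79 in that order. All 14 mitochondrial enzymes were called higher in liver than brain and in kidney than brain, for example Hadh, the short-chain dehydrogenase, at 30374 ± 3561 in liver and 2288 ± 378 in brain, and Acadm, the medium-chain dehydrogenase, at 12892 ± 1167 and 1554 ± 133. Of 13 peroxisomal genes 12 were called higher in liver than brain, with the carrier Scp2 at 29505 ± 4098 and 2941 ± 531. The carnitine enzyme Crot averaged 16650 ± 3509 in liver, 3421 ± 2060 in kidney and 821.5 ± 119.6 in brain.

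Lower calls in liver than in brain, 12 in all, spread over 5 roles: 6 of 14 tested genes of uptake and activation (Fabp3, Fabp7, Slc27a1, Slc27a4, Acsl3 and Acsl6), 3 of 9 regulators (Rxrb, Ppard and Ppargc1a), the carnitine enzyme Cpt1c, Acot7 and Oxct1. Those not named by the rule for pathway genes were named after their values were seen. Acot7, a thioesterase, averaged 724.0 ± 92.2 in liver, 1137 ± 327 in kidney and 6077 ± 1021 in brain. Brain was its highest tissue and the lowest of Acot1, and Acot13 was 0.85 lower in liver than kidney, short of the threshold. Oxct1, which lets tissues use ketone bodies, averaged 457.6 ± 131.6 in liver, 18318 ± 4350 in kidney and 9981 ± 1463 in brain. Among regulators the nuclear receptor Hnf4a averaged 9203 ± 1538 in liver, 8894 ± 1630 in kidney and 129.1 ± 99.5 in brain, and the transcription factor Creb3l3 averaged 9384 ± 1010, 184.6 ± 91.6 and 206.6 ± 71.5. Ppara itself averaged 2963 ± 886, 1192 ± 236 and 120.9 ± 31.2.

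The series was designed to find transcripts that vary between mice and do so alike in every tissue, so the members were tested for a difference among the 10 mice with tissue removed. Ehhadh, Hadha, Hadhb and Cd36 were called, 4 of 9 entries, against 6.76% of all probe sets (limma F-test). None of the members approached a pattern of mouse above tissue: R, the mean SD over mice divided by the mean SD over tissues, was at most 0.469 among them and 0.423 at the median of all probe sets. The mean level per mouse ranged over 0.98 log2 units at the median entry and 0.67 at the median probe set.

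Ehhadh had the lowest p of the entries in the test between mice. In liver the signals of the mice numbered 1, from yellow to pseudoagouti, were 9616, 7387, 14123, 11469 and 9650, and of those numbered 2 they were 9572, 7487, 12014, 12620 and 9280. In kidney they were 3473, 3553, 7438, 11101 and 4096, then 4735, 3427, 4371, 7331 and 4958. In brain they were 57.6, 36.6, 78.3, 95.1 and 77.5, then 45.8, 55.6, 67.0, 72.9 and 80.0. Both slightly mottled mice were low in liver and kidney, and heavily mottled mouse 1 was the highest in kidney and brain.

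The mean over tissues spanned 1.12 log2 units, from slightly mottled mouse 1 to heavily mottled mouse 1 (limma F-test, adjusted p = 0.0109). Leaving out any 1 of the 10 mice kept the call (adjusted p 0.00865 to 0.0433). With the number in the labels removed within each tissue it was the 1 entry still called (adjusted p = 0.0482), against 0.413% of all probe sets. Its mouse effect was not called after quantile normalisation over all arrays (adjusted p = 0.107) or within tissue (0.0890), nor in any pair of tissues (0.0785 to 0.439).

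**Figure D2:**
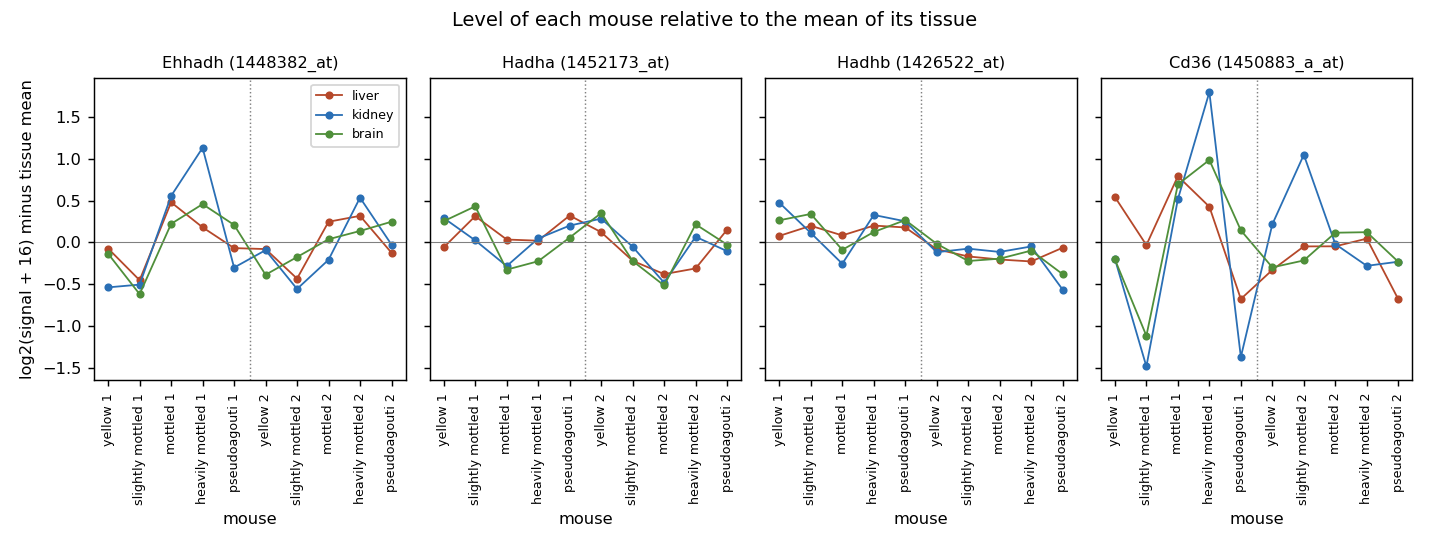
Log2(signal + 16) of each mouse minus the mean of its tissue, for Ehhadh, Hadha, Hadhb 1426522_at and Cd36, with 1 line per tissue and mice numbered 1 left of the dotted line. Ehhadh is lowest in slightly mottled mouse 1 on the mean of tissues and highest in heavily mottled mouse 1, and Cd36 has its widest spread in kidney.

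Between tissues, the r of Ehhadh over the 10 mice was 0.723 for liver and kidney, 0.655 for liver and brain and 0.694 for kidney and brain (Spearman rho 0.648, 0.552 and 0.721). Without the 2 mice farthest from the median of the tissue named first, r was 0.604, 0.656 and 0.477. None passed adjustment over the 27 relations of 9 entries (permutation test, adjusted p = 0.156, 0.157 and 0.156). The highest r of the 27 was that of Hadha between kidney and brain, 0.798 (rho 0.721, 0.519 without 2 mice, adjusted p = 0.130, permutation test). In brain, Ehhadh and Cd36 were near the lower end of the scale, where 1 signal unit weighs more.

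Among the 9 entries Cd36 had the widest range between mice, 1.95 log2 units, again from slightly mottled mouse 1 to heavily mottled mouse 1 (limma adjusted p = 0.0406). Its kidney signals in mice numbered 1, from yellow to pseudoagouti, were 588.2, 231.3, 976.2, 2398.2 and 251.5, and in those numbered 2 they were 789.8, 1419.1, 667.4, 554.6 and 574.4. The summed signal of 6 adipocyte markers (Adipoq, Cidec, Lep, Retn, Cidea and Ucp1) in the same kidneys was 7370, 160.8, 398.6, 8056 and 382.8, then 6173, 12302, 1610, 339.5 and 1560. The 2 kidneys with most Cd36 were the 2 with the highest marker sums, and the kidney with least Cd36 had the lowest sum. Others did not follow: mottled mouse 1, with Cd36 at 976.2, had a sum of 398.6. Yellow mouse 1, with Cd36 at 588.2, had a sum of 7370. The part of fat cells in the Cd36 result was not tested. In liver and brain the marker sum stayed between 180.9 and 563.5.

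The Cd36 call was lost without any of 6 mice, most of all without heavily mottled mouse 1 (adjusted p = 0.102), and with the number removed (0.106). A second Cd36 probe set, 1423166_at, followed the first in liver and kidney (r = 0.847 and 0.947, n = 10) but not in brain (0.150), and its mouse effect was not called (limma adjusted p = 0.626).

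Hadha and Hadhb were called in the mouse effect with limma adjusted p of 0.0307 and 0.0399, over ranges of 0.72 and 1.12 log2 units. Hadha was highest in slightly mottled mouse 1 and lowest in mottled mouse 2, and Hadhb 1437172_x_at was the reverse. With each of the 10 mice left out in turn, Hadha stayed called for 6 and Hadhb 1437172_x_at for 3. The limma adjusted p was highest without mottled mouse 2 (0.246 and 0.115). Neither was called with the number removed (0.115 and 0.459).

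Counted by probe set, 6 of 14 tested were called in the mouse effect, against 6.76% of all probe sets. The 2 not yet given are Hadhb 1426522_at (limma adjusted p = 0.0183) and Cpt1a 1434866_x_at (0.0386), neither of which represents its gene in the counts. Hadhb 1426522_at, which ran opposite to 1437172_x_at, was highest in yellow mouse 1 and lowest in pseudoagouti mouse 2, and was called with all but 1 of the mice left out in turn (adjusted p = 0.0503 without pseudoagouti mouse 1). Cpt1a 1434866_x_at was highest in mottled mouse 2 and lowest in yellow mouse 1 and stayed called for 3 of 10 mice left out, with adjusted p up to 0.146. Neither was called with the number removed (adjusted p = 0.421 and 0.472), and the other Cpt1a probe sets were not called. Of the other pathway genes, the thioesterase Acot12 and the lipid droplet protein Plin2 were called (limma adjusted p = 0.0118 and 0.0251). That is 2 of 76 or 2.63%, below the 6.76% of all probe sets.

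The mice numbered 1 and 2 differed over many transcripts, and members were affected through single probe sets. The labels do not say what the number stands for. Of all probe sets, 9.82% were called between numbers in liver, 7.27% in kidney and 1.93% in brain, and the entries gave 1, 0 and 0 of 9 (limma). At an unadjusted p under 0.05 there were 2, 2 and 4 of 9, against 25.7%, 28.8% and 21.9% of all probe sets, so in liver and kidney the entries were no more often past it than probe sets at large. In liver 4 of 14 tested probe sets were called, all of Cpt1a or Hadhb, and they did not agree within a gene.

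**Figure D3:**
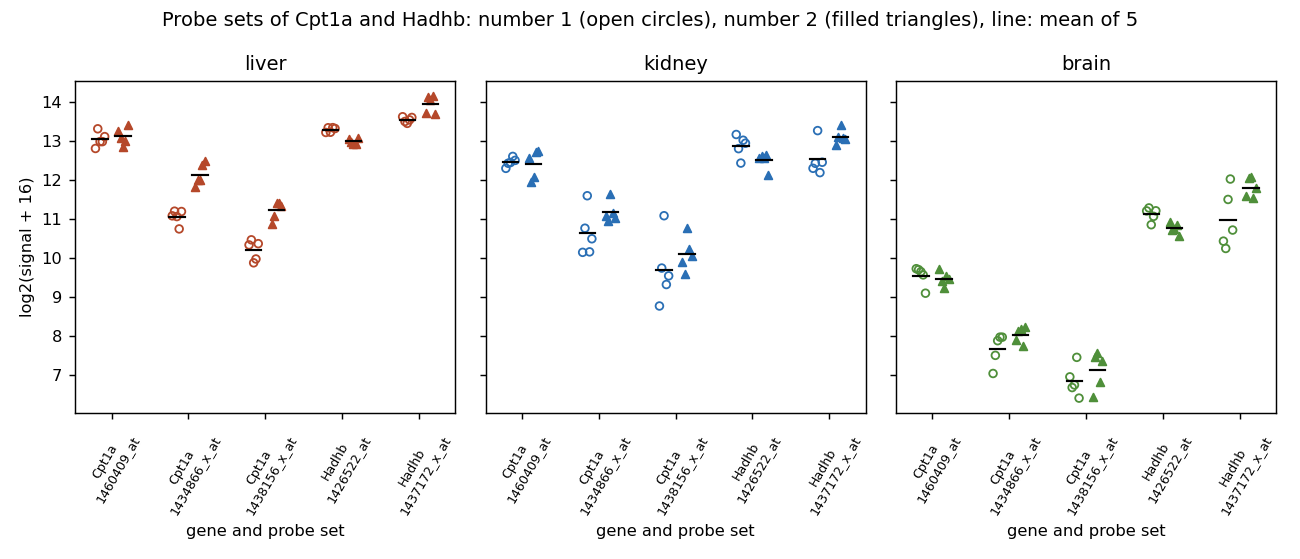
Log2(signal + 16) of 3 probe sets of Cpt1a and 2 of Hadhb in each tissue; open circles are the 5 mice numbered 1, filled triangles the 5 numbered 2, and lines are means. In liver the x_at probe sets are higher in number 2, Hadhb 1426522_at is lower, and Cpt1a 1460409_at overlaps.

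In liver Cpt1a 1434866_x_at read 2150, 2336, 2121, 1701 and 2322 in number 1 (yellow to pseudoagouti) and 3588, 4059, 4076, 5359 and 5677 in number 2. The groups did not overlap, and number 2 was higher by 1.08 ± 0.14 (limma adjusted p = 0.00224). Cpt1a 1438156_x_at was higher by 1.02 ± 0.15 (adjusted p = 0.00290). Cpt1a 1460409_at in the same livers read 7136, 10122, 8060, 8057 and 8813 against 9790, 8658, 7390, 8183 and 10745, a difference of 0.08 with overlapping groups.

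Hadhb moved in opposite directions at its probe sets. In liver 1437172_x_at read 12541, 11530, 11150, 11852 and 12381 in number 1 and 13436, 17669, 16954, 18079 and 13168 in number 2, higher by 0.40 ± 0.11 (limma adjusted p = 0.0401). Hadhb 1426522_at read 9485, 10316, 9522, 10333 and 10174 against 8484, 7993, 7792, 7667 and 8595, lower by -0.30 ± 0.08 (adjusted p = 0.0359). Neither pair of groups overlapped, and groups without overlap occurred in 9.89% of all probe sets in liver. Both calls of Hadhb were lost when any of 8 mice was left out.

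The difference between probe sets of 1 gene, x_at minus at on the log2 scale, was taken in each mouse after these values had been seen and is given as a description with no test. For Hadhb it ran from 0.16 to 0.40 in the livers of number 1 and from 0.61 to 1.24 in those of number 2. The means of number 2 were higher by 0.70 in liver, 0.95 in kidney and 1.18 in brain. For Cpt1a 1434866_x_at against 1460409_at they were higher by 0.996, 0.58 and 0.44, with no overlap in liver and overlap in kidney and brain. Names ending in x_at mark probe sets in which some probes also match other transcripts. The ratio of the 3 prime to the 5 prime Gapdh control, a measure of RNA integrity, also moved with the number: its log2 was -0.5001 to -0.407 in liver number 1 and -0.418 to -0.171 in number 2. Its mean was also higher for number 2 in kidney (-0.36 in number 1, -0.23 in number 2) and brain (-0.39 and -0.33). The same ratio for the actin control had log2 means of 0.55 and 0.90 in the livers of numbers 1 and 2, but went the other way in kidney (0.76 and 0.61) and brain (0.84 and 0.54), and it was not used as a covariate. With the Gapdh ratio as a covariate the liver difference was 0.70 for Cpt1a 1434866_x_at (limma adjusted p = 0.127), -0.32 for Hadhb 1426522_at (0.303) and 0.41 for Hadhb 1437172_x_at (0.348), and none was called. The covariate turned Cpt1a 1460409_at to -0.10. Because the ratio nearly separated the numbers in liver, this fit cannot tell the number and the ratio apart, and lost calls are not evidence on either. The part of RNA integrity was not tested.

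The number effect differed between tissues for 1 of 9 entries, Cyp4a14, against 4.98% of all probe sets (limma F-test of the interaction, adjusted p = 0.0187). In kidney Cyp4a14 read 4436, 4822, 5616, 1900 and 4960 in number 1 and 8172, 4899, 5560, 9084 and 8992 in number 2, a difference of 0.80 ± 0.27 that did not pass adjustment (adjusted p = 0.0821). In brain it read 59.9, 64.9, 38.6, 119.6 and 45.9 against 37.3, 26.3, 7.0, 20.5 and 27.6, a difference of -1.02 ± 0.30 (adjusted p = 0.0881) at signals near the lower end of the scale. The kidney groups overlapped and the brain groups did not, which held for 5.51% of all probe sets in brain. The interaction was not called without heavily mottled mouse 2 or without pseudoagouti mouse 2. In these kidneys the summed signal of 6 tubule markers was 70799 to 127673 in number 1 and 59347 to 72270 in number 2, and the part of that difference was not tested.

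Of the other pathway genes, 5 of 76 were called between numbers in liver (6.58%), 5 in kidney and 0 in brain. Of all probe sets 9.82%, 7.27% and 1.93% were. In liver Ppara (0.66 ± 0.15, limma adjusted p = 0.0158) and its coactivator Ppargc1a (1.01 ± 0.25, 0.0252) were higher in number 2, as were 4.71% of all probe sets. The peroxisomal reductase Decr2 (-0.86 ± 0.13, adjusted p = 0.00309), the mitochondrial hydratase Echs1 (-0.46 ± 0.09, 0.00876) and Plin2 (-0.56 ± 0.15, 0.0362) were lower, as were 5.11%. In kidney Decr1, Etfdh, Acad11, Scp2 and Acat1 were lower by -0.53 to -0.76 (3.43% of all probe sets were lower). The tubule marker sums of these kidneys were 70799 to 127673 in number 1 and 59347 to 72270 in number 2. They overlapped through mottled mouse 1 alone (70799), and the other kidneys of number 1 were at 98947.5 or above. Of the 6 markers, 2 were called between numbers. The part of tubule cells was not tested. The number effect differed between tissues for Ppargc1a, Etfb, Eci2, Decr2 and Cyp4a12a. These are 5 of 76 (6.58%), near the 4.98% of all probe sets.

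The coat classes are ordered by how much of the coat is agouti-coloured, and slopes were fitted per step from 0 (yellow) to 4 (pseudoagouti). No entry was called: 0 of 9 in liver, kidney, brain and the mean of tissues (limma), against 0%, 0.00444%, 0% and 0.00444% of all probe sets. At an unadjusted p under 0.05 there were 0, 1, 1 and 1, against 2.37%, 2.06%, 1.44% and 1.9% of all probe sets. These were Ehhadh, with 0.17 ± 0.07 per step in brain and 0.13 ± 0.06 on the mean of tissues, and Acot2 in kidney, with 0.14 ± 0.06. The adjusted p of Ehhadh was 0.9999 in both. The class means of Ehhadh in liver, from yellow to pseudoagouti, were 9594 ± 31.3, 7437 ± 70.6, 13068 ± 1491, 12044 ± 814 and 9465 ± 261 (SD, n = 2), with the mottled and heavily mottled classes highest and no steady course along the scale. In kidney the means were 4104 ± 893, 3490 ± 89.4, 5904 ± 2169, 9216 ± 2666 and 4527 ± 609. The slope differed between tissues for 0 of 9 entries (limma; 0% of all probe sets), with Cpt1a and Acot2 at an unadjusted p under 0.05 (2.41% of all probe sets). In simulated data a slope of 0.25 per step in liver was recovered in 28.0% of changed probe sets. The simulated noise was the residual spread with tissue and mouse removed, so it held no differences between mice. The share therefore does not give detection in these mice, and smaller slopes were mostly not detectable even there.

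**Figure D4:**
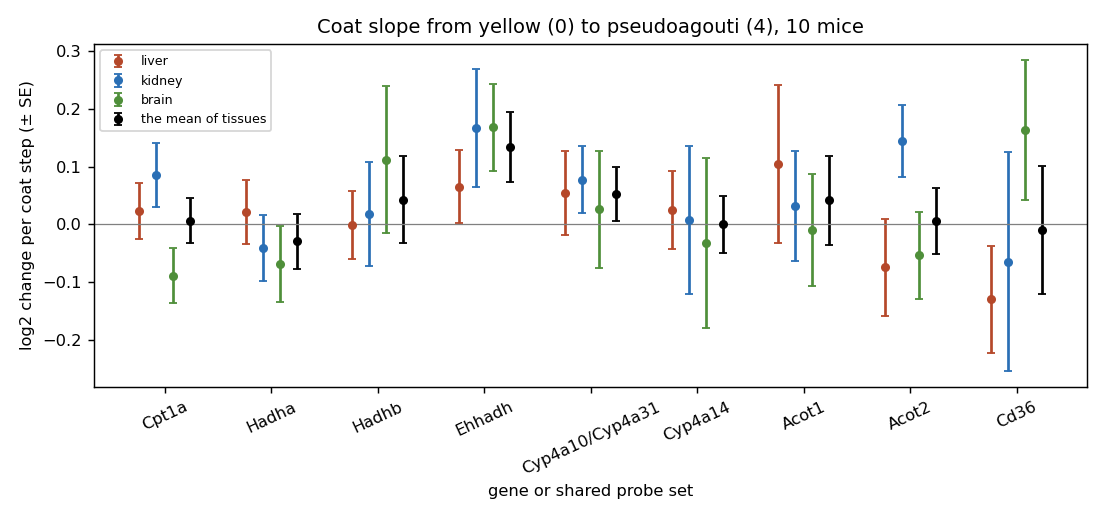
Coat slope (log2 per step ± SE) of the 9 entries in liver, kidney, brain and the mean of tissues, each from 10 mice. The largest estimates, of Ehhadh in brain (0.17) and kidney (0.17), have an unadjusted p under 0.05 only in brain, and no slope passed adjustment.

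Members were then correlated with each other over the 10 mice, 36 pairs in each tissue. The median r was -0.03 in liver, 0.17 in kidney and 0.15 in brain, against 0.015, 0.013 and 0.008 over all gene pairs, and 1 pair per tissue passed adjustment over the relations of all 3 tissues (permutation test). In liver Hadha fell where Acot2 was high, with r = -0.823 (rho -0.855, permutation adjusted p = 0.0432). In kidney Cpt1a followed Cyp4a10/Cyp4a31, r = 0.855 (rho 0.855, adjusted p = 0.0432), and in brain Ehhadh followed Cd36, r = 0.867 (rho 0.745, adjusted p = 0.0432). Without the 2 mice farthest from the median of the gene named first, r was -0.689, 0.653 and 0.745. In brain both Ehhadh and Cd36 were near the lower end of the scale. The brain arrays of mottled mouse 1 and heavily mottled mouse 1 had median signals of 196.7 and 205.4, the others 138.2 to 154.8. No pair passed after either quantile normalisation, and the part of array level in this pair was not tested further.

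Within number 1 and number 2, r was -0.609 and -0.830 for Hadha and Acot2, 0.761 and 0.953 for Cpt1a and Cyp4a10/Cyp4a31, and 0.973 and 0.496 for Ehhadh and Cd36. With the mean of each number removed none of these 3 passed (permutation adjusted p = 0.138, 0.0638 and 0.0930). Another pair then did, Cpt1a with Hadha in liver, with r = 0.638 over the 10 mice (rho 0.697) and 0.934 with the number removed (permutation adjusted p = 0.0225), 0.896 and 0.966 within the numbers. By Spearman's rho no pair passed in any tissue.

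The 2 subunits of the trifunctional protein gave opposite relations according to the probe set of Hadhb. With 1437172_x_at, Hadha had r = -0.807 in liver, -0.701 in kidney and -0.702 in brain. With 1426522_at it had 0.776, 0.540 and 0.530. The Hadhb probe sets ran against each other with r = -0.902, -0.794 and -0.811, and with the number removed these were -0.695, -0.632 and -0.655. The sign for Hadha and Hadhb therefore depended on the probe set in all 3 tissues.

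**Figure D5:**
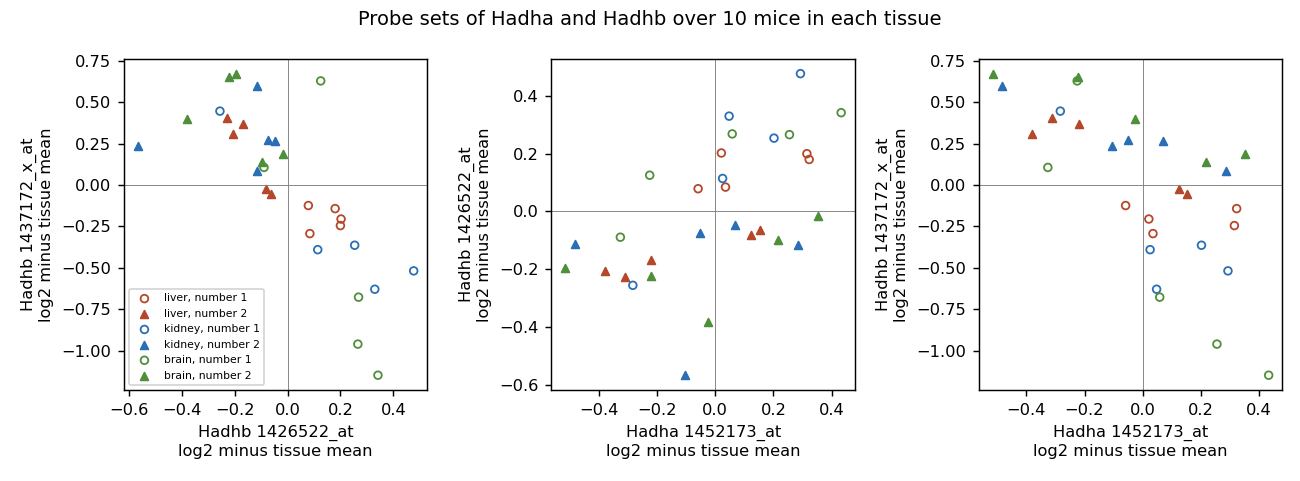
Log2 level of each mouse minus its tissue mean: Hadhb 1437172_x_at against Hadhb 1426522_at (left), Hadhb 1426522_at against Hadha (middle) and Hadhb 1437172_x_at against Hadha (right), coloured by tissue, with open circles for number 1 and filled triangles for number 2. The slope is downward on the left and right (r = -0.902 and -0.807 in liver) and upward in the middle (r = 0.776 in liver).

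Probe sets of the other genes agreed to different degrees. The x_at probe sets of Cpt1a followed each other in liver and kidney (r = 0.953 and 0.941), while 1434866_x_at had r of 0.322, -0.156 and -0.605 with 1460409_at in liver, kidney and brain. The shared probe set 1422997_s_at followed Acot1 in liver and kidney (0.782 and 0.744) and not Acot2 (-0.201 and 0.137). For each member the 2 genes most alike over the 10 mice, in the tissue where it was highest, were taken by r from 20234 probe sets. These were Smc1a and Stub1 for Cpt1a, Ddb1 and Ykt6 for Hadha, Ric8a and Chd1 for Hadhb, Zdhhc15 and Tnfaip2 for Ehhadh, and Gga3 and Smpd3 for Cyp4a14. For the shared Cyp4a10/Cyp4a31 probe set they were Cables2 and Dlgap1, for Acot1 Gpm6a and Prcp, for Acot2 Arhgap32 and 9930021J03Rik, and for Cd36 the 2 genes Rfxank and Srsf3. Their r lay between 0.898 and 0.981, the highest of very many and given with no test. Probe sets of the members were left out of the candidates beforehand, so no member could be named.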

How the data were processed

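The deposited file holds MAS5 intensity per probe set on a linear scale, computed by the authors, per the submitters' processing notes (version not given in the sources used here). Each array's trimmed mean was 500.0 with 2% trimmed at each end, and no further scaling preceded log2(signal + 16). Gene names came from the platform annotation, and 64 control probe sets were left out.

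limma 3.58.1 in R 4.3.3 fitted tissue with mouse as a fixed block, mouse with tissue (F-test), and number or coat slope within tissue, with eBayes and a mean-variance trend over 22519 probe sets. Adjusted p under 0.05 (Benjamini-Hochberg) was the threshold. Correlations used 100000 permutations in SciPy 1.17.1. Nothing says that mice came from separate litters, so p-values refer to these mice only. For number and coat slope they are set against the spread between mice. Fits with mouse as a term (tissue, mouse and interactions) used the spread left within mice. Named genes were all members, pathway genes called between mice or numbers, and up to 3 per role with the highest mean. Ppara, named as the factor of the pathway, is also called by number. The shared probe set was counted for Cyp4a10, which has none of its own. The members and lists were chosen with earlier results of these data known. Tubule, adipocyte, hepatocyte, neuron and glia, macrophage, endothelium, muscle and blood markers were summed per sample. The 6 tubule markers were Kap, Lrp2, Slc34a1, Slc22a6, Slc5a2 and Umod.

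Fits were tested on simulated data: an SD between mice of 0.5 log2 was found in 71.0% of 200 changed probe sets, and a number difference of 1 log2 in liver in 66.0%. The noise was the residual spread with tissue and mouse removed, so the 66.0% does not take in differences between mice. Alternatives were offsets of 1 and 64, quantile normalisation, other filters, no trend, other blocks, other probe sets, pairs of tissues and each mouse left out. The numbers do not pair mice in the labels. Removal of the number, as a replicate block, was an alternative, and the Gapdh covariate, calls at any probe set and the probe set contrast were added after seeing the data.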

Additional observations from a re-analysis of the deposited data

Results flagged for a closer look

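Cyp4a14 in the kidney of heavily mottled mouse 1 stood apart from the other 9 kidneys, with a log2 level of 10.9 against 12.12 in the next lowest. The gap was 0.541 of the range. Of the 27 groups of 10 examined (9 entries in 3 tissues), this was the 1 that stood apart, and chance marks about 1 group in 20.

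The difference between numbers changed across tissues for Cyp4a14, with an adjusted p of 0.01871 in limma's F-test. Number 2 read higher in kidney and lower in brain, where signals were 7.0 to 119.6. The same mouse had the lowest kidney value and the highest brain value, 119.6.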

How the results depend on the processing

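The counts of entries called between liver and brain (8) and between kidney and brain (9), and those of coat slopes (0), held under the alternatives run, except that a required difference of 2 gave 7 and 6 for the tissue counts and calls at any probe set gave 9 for liver against brain. For liver against kidney the count was 1 with an offset of 64, 0 after quantile normalisation over all arrays, and 0 with a required difference of 2, and 1 to 3 with a mouse left out. The cause was not tested in these or the following.

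The mouse effect called 2 entries under either quantile normalisation, 1 without a filter, without a trend or with the Gapdh covariate, 0 in each pair of tissues, and 1 to 4 with a mouse left out. With the number as a replicate block, within tissue or over all tissues, it called 1. The replicate block in place of mouse changed no tissue count (3, 8 and 9), and as a covariate no coat count.

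The number difference in liver called 0 without a filter, without a trend, with coat class as a block or with the Gapdh covariate, 2 at any probe set, and 0 to 1 with a mouse left out. In kidney it called 1 with coat class as a block and 0 to 2 with a mouse left out. In brain it called 0 to 1 with a mouse left out, and the interaction 0 to 2. Mottled mouse 1 gave the 2 in kidney.

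Pairs called 0 in every tissue by Spearman's rho, with an offset of 64, after either quantile normalisation, or with the probe set highest in the tissue. With the number removed as a replicate block they called 1 in liver, 0 in kidney and 0 in brain. With a mouse left out the range was 0 to 1 for liver pairs, 0 to 2 for kidney pairs, 0 to 2 for brain pairs, and 0 to 1 for relations between tissues.

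Liver against kidney for Cd36 reversed to -0.0415 without slightly mottled mouse 1 (range with a mouse left out -0.0415 to 0.273), and the liver number difference of Cpt1a 1460409_at reversed to -0.105 with the Gapdh covariate. Brain signals of Ehhadh, Cyp4a14, Cyp4a10/Cyp4a31 and Cd36 lie near background, which limits what brain can show.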
